A study of Mus musculus with 6 samples.

Results

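The glypicans and syndecans are the 2 families of cell surface proteoglycans that carry heparan sulphate chains, and all 10 of their mouse genes, Gpc1 to Gpc6 and Sdc1 to Sdc4, were measured among 30702 genes on the array. A gene was read from the features whose annotation names that symbol alone, and from the brightest of them by its mean over the 6 arrays where there were several, so the feature was chosen by its mean brightness and not by the difference between groups. This decided only for Gpc4, which had 2 features; the other 9 genes had 1 each. The family was picked with earlier results of these arrays known, in which Gpc3 stood out, so the test values of Gpc3 describe these arrays and are no independent support.

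The arrays held RNA of mouse embryonic stem cells of the line labelled iRunx, grown as embryoid bodies, aggregates that form the germ layers, and taken apart at day 4. Cells with surface Flk1, the VEGF receptor encoded by Kdr, and without PDGFRα were sorted, a fraction known to hold precursors of blood and endothelium. In 3 samples the sorted cells expressed HOXB4, a homeodomain transcription factor, from a retrovirus with a tdTomato reporter, and 3 control samples came from cells without that expression. Both groups share the iRunx background and the sort; whether controls carried an empty virus, and whether a Runx gene had been switched on, was not stated by the labels used here. The 3 samples of a group are described as independent experiments. Each value is a log2 RMA summary, a background-corrected and quantile-normalised brightness, and levels are set only against the same gene in other arrays.

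Glypicans are held in the membrane by a lipid (GPI) anchor and carry their chains close to the cell surface, while syndecans span the membrane and carry theirs further out. The sulphated chains bind FGF, WNT, BMP, hedgehog and VEGF proteins, and so tune how far these signals spread and how strongly a cell receives them. In human, loss of GPC3 causes the Simpson-Golabi-Behmel overgrowth syndrome, and in mouse the Gpc3 protein is known to bind hedgehog ligands and to compete with the receptor Ptch1 for them.

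Gpc3 and Gpc4 lie next to each other on the X chromosome and Gpc5 and Gpc6 on chromosome 14, an arrangement that goes back to a shared ancestral pair. The 250 bases before the annotated start of Gpc3 and of Gpc4 are shown because the mean of HOXB4 cells was lower for Gpc3 and higher for Gpc4, though neither passed the test and in the second HOXB4 sample both lay above all controls. They are RefSeq sequences of build GRCm38.p6, from chrX:52613975-52614224 and chrX:52164924-52165173, both on the minus strand and printed 5′ to 3′, and capitals mark the GC box GGGCGG on either strand.
Gpc3: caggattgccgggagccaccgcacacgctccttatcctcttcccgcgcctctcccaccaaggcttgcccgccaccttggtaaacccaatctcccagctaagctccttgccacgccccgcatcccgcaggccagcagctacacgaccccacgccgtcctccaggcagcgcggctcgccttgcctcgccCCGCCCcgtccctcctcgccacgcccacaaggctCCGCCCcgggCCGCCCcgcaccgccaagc
Gpc4: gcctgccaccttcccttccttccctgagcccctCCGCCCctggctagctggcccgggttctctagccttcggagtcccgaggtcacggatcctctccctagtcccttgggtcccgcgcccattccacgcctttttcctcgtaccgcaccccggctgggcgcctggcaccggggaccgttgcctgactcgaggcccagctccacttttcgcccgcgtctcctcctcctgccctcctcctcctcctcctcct

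The Gpc3 window holds 3 GC boxes and 25 CpG sites and is 71.6% G and C, and the Gpc4 window holds 1 GC box and 18 CpG sites at 68.4%. All 7 members with an entry in the promoter table hold a GC box, against 32.7% of 32851 promoter windows of that length, whose median GC content is 52.4%. In the 7 it ran from 51.2% (Gpc5) to 76.4% (Sdc3), and no share compared here is matched for GC content. Gpc1, Gpc6 and Sdc2 had no entry, so the counts given here do not cover them. The letters TAAT, the core that homeodomain proteins bind, were searched on both strands and stand in 2 of the 7 windows, those of Gpc5 and Sdc1, against 54.9% of all windows. Neither the Gpc3 nor the Gpc4 window has them, which says only that these letters are not within those bases.

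RNA of microRNA genes inside Gpc3 was measured too, and the mature sequences of Mir717 and Mir6384 are shown because their features lie within the Gpc3 gene on its own strand. They are RefSeq sequences of GRCm38.p6 at chrX:52422461-52422482 and chrX:52378155-52378174, minus strand, with the seed, bases 2 to 8, in capitals; the seeds differ.
mmu-miR-717: cUCAGACAgagauaccuucucu
mmu-miR-6384: gCUUUCCUacuguuucccug

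The array's 23 antigenomic features, which match no mouse transcript, gave medians of 3.06 to 3.15, and the median gene stood at 5.10 to 5.22. A value is called above background where it exceeded the 95th percentile of those 23 features in its array, which ran from 5.05 to 5.68. Kdr stood between 13.7 and 14.3 in all 6 arrays. Above background in at least 1 array were 9 of 10 endothelial, 8 of 9 cardiac, 8 of 10 pluripotency and 7 of 10 stromal marker genes. The counts were 6 of 10 for blood progenitor, 5 of 9 for neural, 4 of 9 for paraxial mesoderm and 2 of 10 for endoderm markers. HOXB4 2 stands apart from the other HOXB4 arrays in many genes, so results are given with and without it. The controls varied in a related way. Over all genes control 2 deviated from its group mean like HOXB4 1 and 3 (r = 0.43 and 0.38) and opposite to HOXB4 2 (r = -0.59). In limma's moderated test 0 of 30702 genes passed a Benjamini-Hochberg adjusted p of 0.05 (2513 at an unadjusted p of 0.05), and without HOXB4 2 46 passed, 43 of them lower.

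In HOXB4 cells 7 of the 10 genes had a mean below that of controls and 3 above, with a median log2 difference of -0.27, beside 60.0% of all genes below and a median of -0.04. No member passed the test over all genes (0% of genes passed). At an unadjusted p of 0.05 stood 3 of the 10, beside 8.19% of all genes: 2 were higher (2.23% of genes) and 1 lower (5.95%). For 3 members the groups did not overlap, as for 13.5% of all genes: Gpc2 and Gpc4 lay higher in every HOXB4 array (3.24% of genes did) and Sdc1 lower (10.2%). Over all 10 members HOXB4 1 and HOXB4 3 each lay below every control for 6 and above for 3, whereas HOXB4 2 lay within the controls for 5, below for 2 and above for 3. Gpc1, Gpc3, Gpc6 and Sdc2 were the members for which both HOXB4 1 and HOXB4 3 lay below all controls and HOXB4 2 did not. Without HOXB4 2 the groups did not overlap for 7 members, 5 lower and 2 higher, beside 31.9% of all genes (21.4% lower and 10.5% higher), and 7 of 10 were still below controls in mean, beside 60.5% of genes. In these sorted populations fewer cells of a kind and less RNA per cell cannot be told apart.

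**Figure D1:**
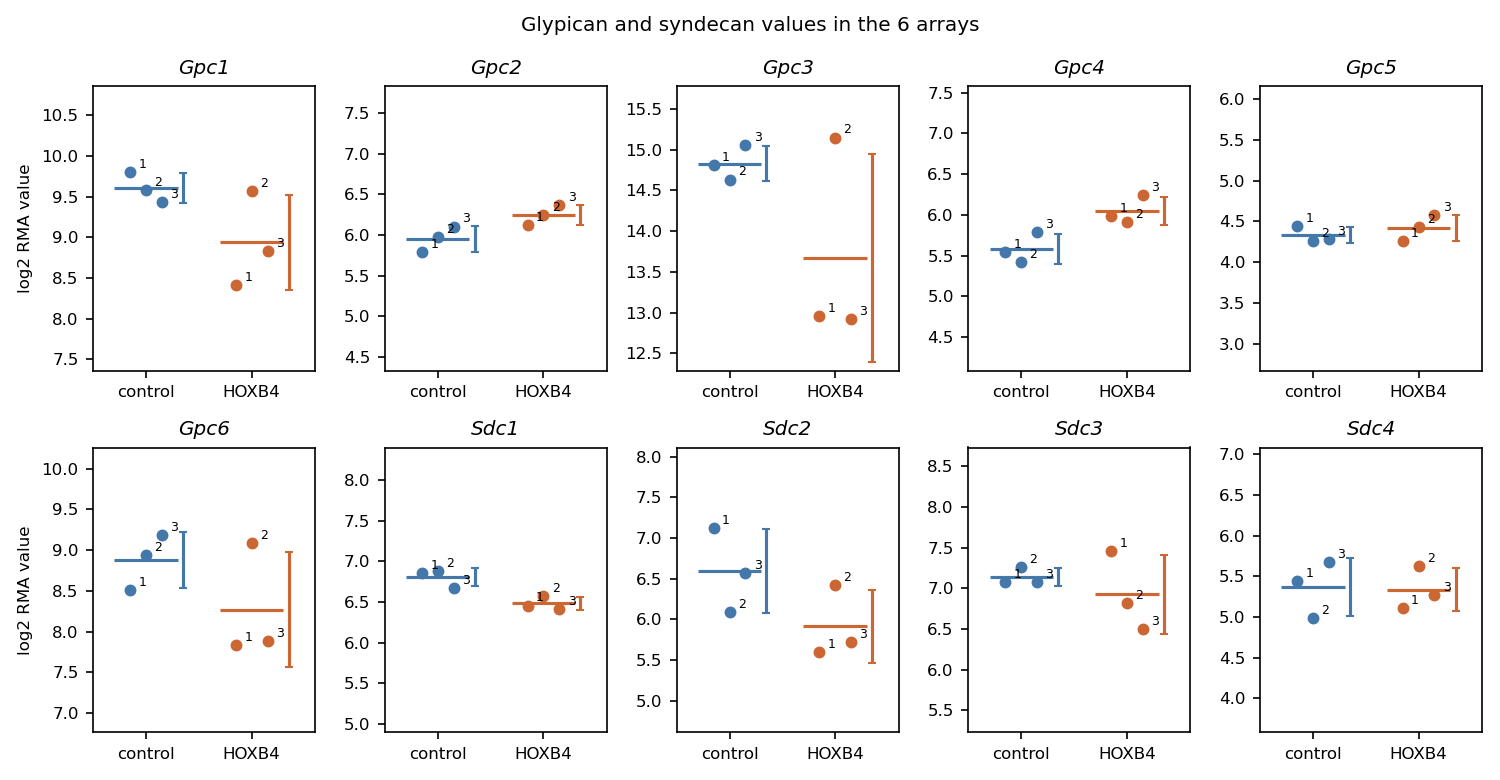
Log2 RMA values of the 10 genes (vertical axes, each spanning the same number of log2 units) in the 3 control and 3 HOXB4 arrays, numbered by replicate; horizontal lines are group means and bars are 1 SD each way. HOXB4 1 and 3 lie below all controls for Gpc1, Gpc3, Gpc6, Sdc1 and Sdc2, and every HOXB4 array lies above all controls for Gpc2 and Gpc4.

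Gpc3 showed the widest spread of the family. Controls 1 to 3 read 14.81, 14.63 and 15.05, and HOXB4 1 to 3 read 12.96, 15.15 and 12.92. Relative to the control mean HOXB4 1 and 3 thus stood at -1.87 and -1.91, each below all controls, while HOXB4 2 had the highest value of the 6 arrays. Controls averaged 14.8 ± 0.21 (SD, n = 3) and the HOXB4 arrays 13.7 ± 1.28 (SD, n = 3). Over all arrays Gpc3 differed by -1.16 (SE 0.58; 95% interval -2.54 to 0.22), a 2.23-fold lower mean, and did not pass (limma adjusted p = 0.63). Without HOXB4 2 the difference was -1.89 (SE 0.15), 3.71-fold lower, and Gpc3 was then the 1 member that fell in limma's test (adjusted p = 0.023; 0.150% of all genes passed, 0.140% lower and 0.00977% higher). The call rests on leaving out that array: without HOXB4 1 or HOXB4 3 the difference was -0.80 or -0.78 (adjusted p = 0.92 and 0.89).

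The features of 2 microRNA genes inside Gpc3 were dim. Mir717 was at 5.89, 5.996 and 6.17 in the controls and at 5.19, 6.35 and 5.38 in HOXB4 1 to 3, so that HOXB4 1 and 3 lay below all controls and HOXB4 2 above them. It differed by -0.38 (SE 0.29), and by -0.73 without HOXB4 2 (adjusted p = 0.72 and 0.12). Mir6384 was at 4.69, 4.39 and 4.31 and at 4.09, 4.82 and 3.94, also with HOXB4 1 and 3 lowest and HOXB4 2 highest. Its values were not above background in any array, and those of Mir717 were not in HOXB4 1 and 3, so the order of the arrays rests on values near background. A feature for a hairpin inside a gene can take up RNA of the host transcript, so neither is read as mature microRNA.

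Gpc6, the glypican mutated in human omodysplasia, stood at 8.51, 8.94 and 9.18 in controls and at 7.84, 9.08 and 7.89 in HOXB4 1 to 3. Again HOXB4 1 and 3 lay below all controls and HOXB4 2 lay among them. The difference was -0.61 (SE 0.36, limma adjusted p = 0.65), or -1.01 (SE 0.20, adjusted p = 0.14) without HOXB4 2 and -0.39 (adjusted p = 0.94) without HOXB4 1. Gpc1, a glypican known from brain and muscle, stood at 9.80, 9.58 and 9.43 and at 8.41, 9.57 and 8.83, a difference of -0.67 (SE 0.28, adjusted p = 0.60). HOXB4 2 was again within the controls, and without it Gpc1 differed by -0.98 (SE 0.18, adjusted p = 0.12), while without HOXB4 1 it differed by -0.40 (adjusted p = 0.91). Mir149, which lies inside Gpc1, was at 5.14, 5.30 and 4.92 in controls and at 5.08, 5.32 and 4.74 in HOXB4 1 to 3. HOXB4 1 lay within the controls, HOXB4 2 was highest and HOXB4 3 lowest. It was above background in 1 array, so no likeness to or contrast with Gpc1 is read from it.

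Gpc4, known from mouse and human stem cells and neural progenitors, was the glypican with the smallest unadjusted p. The controls read 5.54, 5.42 and 5.78, and HOXB4 1 to 3 read 5.98, 5.91 and 6.24. HOXB4 2 took part here, and all 3 HOXB4 values lay above all controls. The difference was 0.46 (SE 0.14; 95% interval 0.14 to 0.79), with an unadjusted p of 0.012 and an adjusted p of 0.60. The second, dimmer Gpc4 feature gave 5.62, 5.24 and 5.63 in controls and 5.89, 5.77 and 6.03 in HOXB4 cells, without overlap either. Gpc4 was above background in 3 of 3 HOXB4 arrays but in 1 of 3 controls, so its control level is near the limit of what the array measures. Across the 6 arrays Gpc4 tended to be high where its neighbour Gpc3 was low (Pearson's r = -0.66, Spearman's rho = -0.43; exact permutation test, adjusted p = 0.33 and 0.84 over 2 relations). That sign rests on HOXB4 1 and 3, the arrays farthest from the Gpc3 median, since among the 4 other arrays both genes ran in the same order (r = 0.99). On only 4 arrays this r did not pass either (exact permutation test, adjusted p = 0.17).

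Gpc2, a glypican of developing neurons, stood at 5.79, 5.97 and 6.10 in controls and at 6.12, 6.25 and 6.37 in HOXB4 1 to 3. The groups did not overlap, though control 3 and HOXB4 1 nearly met, and the difference was 0.29 (SE 0.12, limma adjusted p = 0.60). Stag3, a cohesin subunit of meiosis whose annotated gene overlaps Gpc2, was higher in every HOXB4 array as well, at 6.94, 7.83 and 7.71 in controls and 8.45, 7.96 and 8.67 in HOXB4 cells (difference 0.87, SE 0.28, adjusted p = 0.60). Whether RNA of Stag3 reaches the Gpc2 feature was not tested. Gpc5 stood between 4.25 and 4.57, not above background in any array, and its difference of 0.09 (SE 0.11) is not read as expression. Gpc5 and its neighbour Gpc6 gave r = -0.31 and rho = 0.03 over the 6 arrays (exact permutation test, adjusted p = 0.53 and 1.0).

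**Figure D2:**
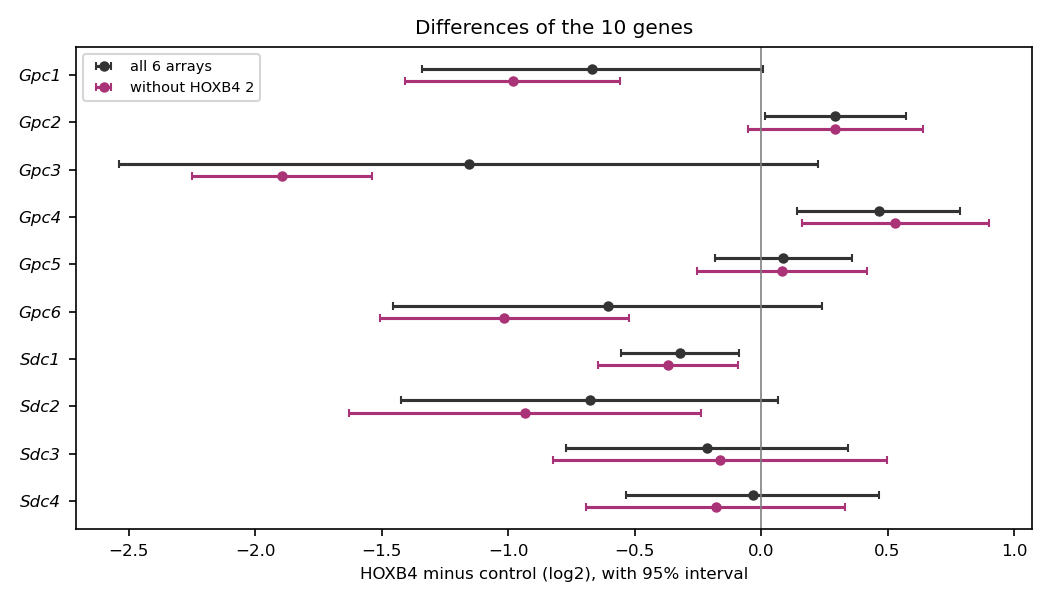
Log2 difference, HOXB4 minus control, of the 10 genes with its 95% interval from limma, over all 6 arrays (dark) and without HOXB4 2 (purple). The Gpc3 interval runs from -2.54 to 0.22 with all arrays and from -2.25 to -1.54 without HOXB4 2, while Gpc4 moved from 0.46 to 0.53, Sdc1 from -0.32 to -0.37 and Gpc2 stayed at 0.29.

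Among the syndecans Sdc1, the syndecan of epithelia and plasma cells, stood at 6.86, 6.88 and 6.68 in controls and at 6.46, 6.58 and 6.42 in HOXB4 1 to 3. Every HOXB4 value lay below every control value, HOXB4 2 included. The difference was -0.32 (SE 0.10; 95% interval -0.56 to -0.09), 1.25-fold, with an unadjusted p of 0.015 and a limma adjusted p of 0.60. Sdc2, a syndecan of mesenchyme that takes part in vessel sprouting in zebrafish, stood at 7.12, 6.09 and 6.56 and at 5.60, 6.42 and 5.72. HOXB4 1 and 3 lay below all controls and HOXB4 2 within them. Sdc2 was above background in 5 arrays. HOXB4 1 was under its limit of 5.68 and HOXB4 3 just over its limit of 5.61, so these low values lie near background. The difference was -0.68 (SE 0.31, adjusted p = 0.61), and -0.41 without control 1, the array in which Sdc2 was highest. Sema5a, a semaphorin gene and the nearest measured gene before Sdc2 on chromosome 15, lay lower in all HOXB4 arrays, at 6.97, 6.23 and 6.43 in controls and 5.31, 6.06 and 5.49 in HOXB4 cells (difference -0.92, SE 0.26, adjusted p = 0.60). Sema5a was above background in 4 arrays, and HOXB4 1 and 3 were not among them, so the size of its difference rests on values near background.

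Sdc3, a syndecan of the nervous system, stood at 7.08, 7.26 and 7.08 in controls and at 7.46, 6.82 and 6.50 in HOXB4 1 to 3, with HOXB4 1 the highest of the 6 arrays and HOXB4 3 the lowest. Its difference was -0.21 (SE 0.23, limma adjusted p = 0.80), which was -0.48 without HOXB4 1 and near 0 without HOXB4 3. Sdc4, a focal adhesion syndecan that acts with protein kinase C alpha, stood at 5.44, 4.99 and 5.68 and at 5.11, 5.62 and 5.27, above background in 2 arrays. Its groups overlapped, and the difference of -0.03 (SE 0.21; 95% interval -0.53 to 0.47) changed sign with the array left out. Of the 18 nearest measured genes on either side of the members that are no members themselves, 2 had groups without overlap, Stag3 and Sema5a, a share no larger than the 13.5% of all genes.

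For a ranking by likeness to Gpc3, predicted, clone-named, small RNA, olfactory, vomeronasal, immunoglobulin and T cell receptor genes and pseudogenes were left out. Genes whose values over the 6 arrays were most like those of Gpc3 were ranked by Pearson's r among the 1025 remaining genes with an SD of at least 0.5. They were Vldlr, a lipoprotein and reelin receptor (r = 0.998), Lef1, a transcription factor of WNT signalling (0.997), Rftn1, a lipid raft protein (0.996), Tle3, a Groucho family co-repressor (0.995), and Cdh11, a cadherin of mesenchyme (0.995). Lef1 was at 10.3, 10.2 and 10.7 in controls and at 8.35, 10.7 and 8.10 in HOXB4 1 to 3. Vldlr was at 8.47, 8.38 and 8.83 and at 6.71, 8.81 and 6.79. In each of the 5, as in Gpc3, HOXB4 1 and 3 were low and HOXB4 2 was among or above the controls. Those that ran most opposite were Map1b, a microtubule-associated protein (r = -0.998), Gstm1, a glutathione transferase (-0.990), and Gab1, a docking protein of receptor signalling (-0.985). These coefficients describe 6 points that share 1 split of the arrays, and they were picked as extremes of many genes. Among the family, r to Gpc3 was 0.94 for Gpc6, 0.91 for Gpc1 and 0.81 for Sdc2.

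**Figure D3:**
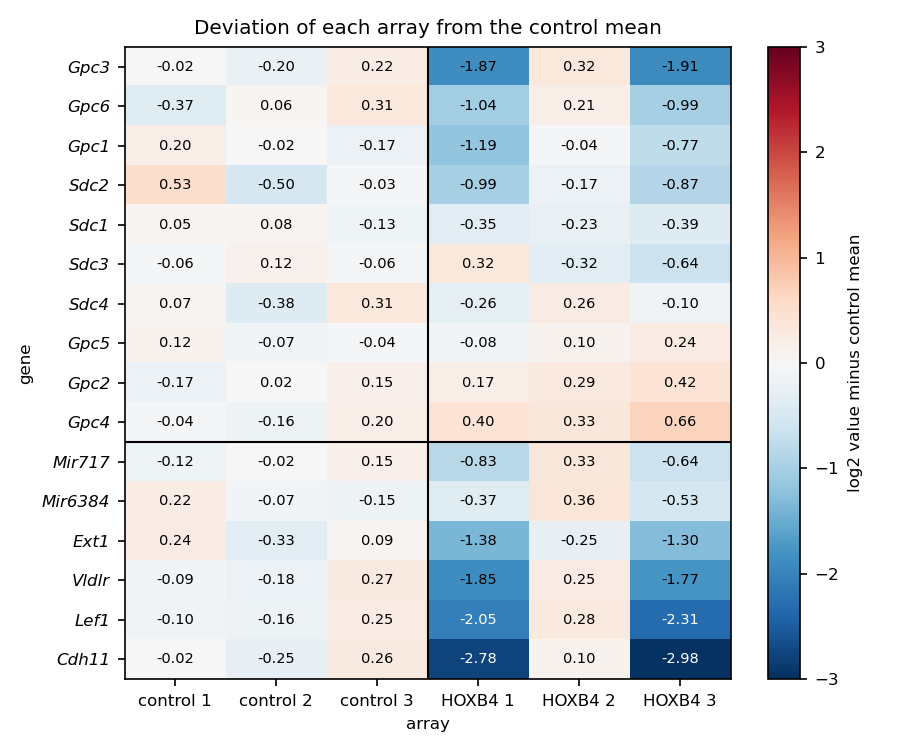
Log2 value of each array minus the gene's control mean, for the 10 members (above the line) and for the 2 microRNA features inside Gpc3, Ext1 and 3 of the genes most like Gpc3 (below it); the colour gives the size and sign in log2 units. HOXB4 1 and 3 are low for Gpc3, Gpc6, Gpc1, Sdc2, Mir717, Ext1, Vldlr, Lef1 and Cdh11, where HOXB4 2 stays between -0.25 and 0.33, and Gpc4 and Gpc2 are above 0 in all 3 HOXB4 arrays.

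Markers of other cell kinds moved with the same arrays. The mean of 9 measured cardiac mesoderm markers was 7.63, 7.33 and 7.36 in controls and 6.55, 7.14 and 6.56 in HOXB4 1 to 3. That of 10 smooth muscle and stromal markers was 7.61, 7.14 and 7.63 and then 6.45, 7.58 and 6.63, so that HOXB4 1 and 3 were lowest in both lists. Within the cardiac list Hand1, Tbx20 and Isl1 were low in those arrays (differences of -4.56, -2.44 and -1.77 without HOXB4 2), whereas Mef2c and Tnnt2 were highest in them (1.64 and 0.45). Isl1 was above background in 4 arrays, HOXB4 1 and 3 not among them. The 10 endothelial markers averaged 8.57, 9.94 and 8.48 in controls and 10.8, 8.30 and 9.44 in HOXB4 cells, highest in HOXB4 1 and lowest in HOXB4 2. Above background in at least 1 array were 8 of the 9 cardiac, 7 of the 10 stromal and 9 of the 10 endothelial genes. With all 6 arrays 0 genes of any marker list passed limma's test. Without HOXB4 2, 3 of 9 cardiac and 2 of 10 stromal genes fell in it, beside 0.140% of all genes, and 0 of 10 endothelial ones passed. HOXB4 2 was left out because it stood apart, and the lists were chosen with earlier results known. These counts thus describe the arrays and are no independent support. The 10 pluripotency markers averaged 7.12, 6.39 and 7.24 in controls and 6.70, 7.73 and 7.48 in HOXB4 cells, and the blood progenitor markers 6.32, 5.97 and 6.58 and then 6.16, 6.50 and 6.02. Of the 9 measured neural markers 4 lay higher and 5 lower, with a median difference of -0.05, and Tubb3, a neuronal tubulin, differed most, by 1.95. The paraxial ones averaged 5.19, 5.08 and 5.21 in controls and 4.91, 5.36 and 4.985 in HOXB4 1 to 3. HOXB4 1 and 3 were lowest in this mean too, and HOXB4 2 was highest. That order rests largely on Msgn1, at 8.41, 8.12 and 9.18 in controls and at 6.91, 9.97 and 7.13 in HOXB4 1 to 3. Only 4 of the 9 were above background in at least 1 array. Tcf15, above it in 6 arrays, did not share the order. Pdgfra had no feature of its own and is not included. The part of such a shift in the values of Gpc3, Gpc6, Gpc1 and Sdc2 was not tested. Endoderm, another known source of Gpc3, averaged 4.41 to 4.68 in controls and 4.44 to 4.59 in HOXB4 cells, with 8 of its 10 markers, Afp, Ttr, Foxa2 and Hnf4a among them, not above background in any array. The other 2 were Sox17, which endothelium also expresses, above background in 6 arrays, and Rhox5, above it in 4, which differed by 0.34 and -0.57.

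The enzymes that build the chains were measured next to their carriers. Of 14 genes for the linkage region and the polymerases, 0 passed limma's test, 6 lay higher and 8 lower, with a median difference of -0.13. The groups overlapped for all 14. Ext1, which with Ext2 forms the polymerase of heparan sulphate, stood at 11.9, 11.3 and 11.7 in controls and at 10.3, 11.4 and 10.3 in HOXB4 1 to 3, again with HOXB4 1 and 3 below all controls and HOXB4 2 among them. It differed by -0.98 (SE 0.32), or 1.97-fold, and by -1.34 without HOXB4 2. The linkage enzymes B4galt7 and Xylt2 and the transferase Extl2 differed by 0.24, -0.18 and -0.20 (SE 0.12, 0.11 and 0.11).

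Of 18 measured genes for sulphation, 0 passed, 7 lay higher and 11 lower, with a median of -0.04, and 10 were above background in at least 1 array. The groups did not overlap for 1 higher and 1 lower gene of the 18, beside 3.24% and 10.2% of all genes. Papss2, which makes the sulphate donor PAPS, stood at 6.67, 6.73 and 6.74 in controls and at 6.44, 6.40 and 6.20 in HOXB4 1 to 3. All HOXB4 values lay below all controls, a difference of -0.37 (SE 0.10). Hs6st1, a transferase that adds 6-O sulphate, stood at 7.32, 7.06 and 7.27 and at 7.85, 7.37 and 8.28, higher in every HOXB4 array, with a difference of 0.62 (SE 0.22), or 0.39 without HOXB4 3. The 3-O sulphotransferase gene Hs3st3a1 differed by -0.36 (SE 0.23), or -0.12 without control 2. Hs3st6, of the same kind, was not above background.

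Among 9 genes that edit or release the chains and their cores, 0 passed, 5 lay higher and 4 lower. The groups did not overlap for 1 higher and 1 lower gene of the 9, beside 3.24% and 10.2% of all genes. Sulf2, an extracellular enzyme that removes 6-O sulphate, stood at 12.3, 12.5 and 12.2 in controls and at 12.0, 12.2 and 12.1 in HOXB4 1 to 3, lower without overlap (difference -0.24, SE 0.10). Mmp14, a membrane protease that can shed Sdc1, stood at 9.35, 9.91 and 10.2 and at 10.4, 10.4 and 10.5, higher without overlap (difference 0.61, SE 0.20; 0.38 without control 1). The heparanase gene Hpse differed by -0.42 (SE 0.16), above background in 2 arrays, and Furin, a proprotein convertase that cleaves Gpc3 in its core, by 0.24 (SE 0.20), or 0.03 without HOXB4 1.

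**Figure D4:**
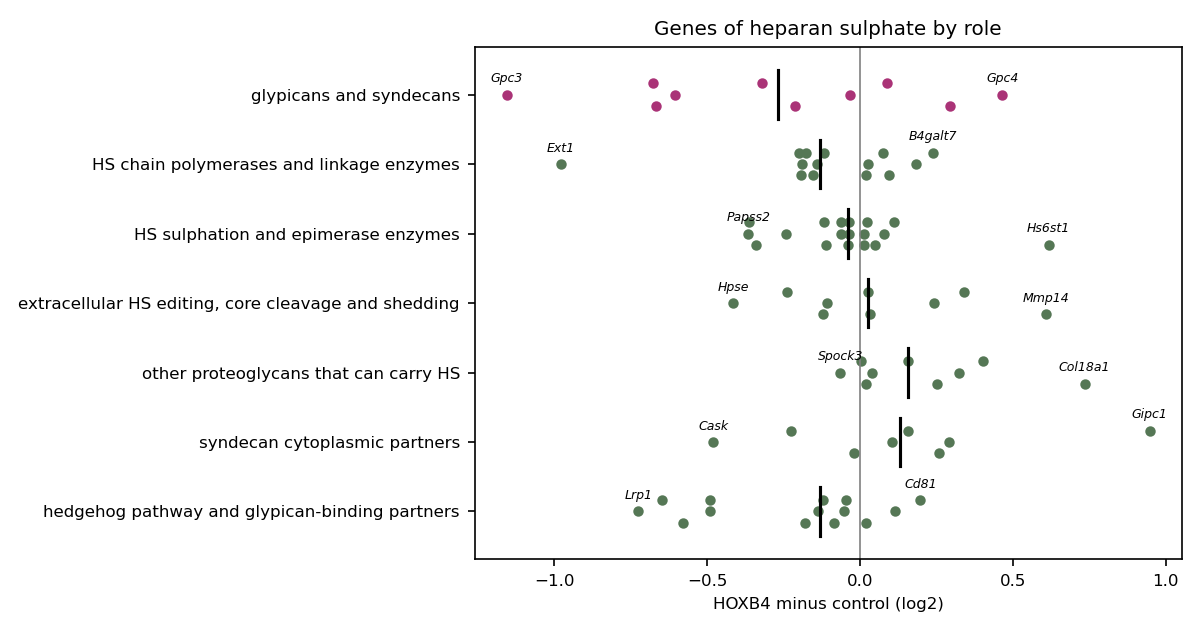
Log2 difference, HOXB4 minus control, of each gene (points) in the glypicans and syndecans and in 6 lists of heparan sulphate and partner genes, with the list median as a black line; the lowest and highest gene of each list is named. Gpc3 and Ext1 are the lowest of their lists, and Gipc1 at 0.95 and Col18a1 at 0.73 the highest of theirs.

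Of 9 other measured proteoglycans that can carry heparan sulphate, 8 lay higher and 1 lower, with a median of 0.16, and 0 passed. Only 6 of the 9 were above background in at least 1 array, and Spock1 and Spock2, counted as higher, were in none. The groups overlapped for all 9. The mean of the list was 6.92, 7.18 and 7.01 in controls and 7.52, 7.06 and 7.14 in HOXB4 1 to 3. Only HOXB4 1 lay above all controls. Col18a1, a basement membrane collagen, stood at 7.13, 7.75 and 7.28 in controls and at 8.94, 7.24 and 8.18 in HOXB4 1 to 3, a difference of 0.73 (SE 0.41), which ran from 0.32 without HOXB4 1 to 1.18 without HOXB4 2. HOXB4 1 and 3 were the highest arrays and HOXB4 2 was within the controls. Hspg2 and Agrn, the basement membrane proteoglycans perlecan and agrin, differed by 0.40 and 0.32 (SE 0.26 and 0.27), with ranges of 0.20 to 0.67 and 0.14 to 0.61 as 1 array was left out, and Spock3 was not above background.

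Of 8 measured proteins that bind the syndecan tail or act with it, 0 passed, 5 lay higher and 3 lower. The groups did not overlap for 1 of the 8, Sdcbp2, which was higher, as were 3.24% of all genes. Gipc1, an adaptor that binds the tail, differed by 0.95 (SE 0.55; 0.40 without control 1), the scaffold gene Cask by -0.48 (SE 0.29), Prkca, the kinase that acts with Sdc4, by 0.26 (SE 0.15) and the syntenin relative Sdcbp2 by 0.16 (SE 0.11). Of 14 hedgehog pathway and glypican partner genes, 0 passed and 11 lay lower, with a median of -0.13 (-0.21 without HOXB4 2). The groups did not overlap for 1 lower and 0 higher genes of the 14, beside 10.2% and 3.24% of all genes. Ptch1, the hedgehog receptor and a target of the pathway, stood at 9.76, 9.69 and 9.93 in controls and at 9.05, 9.70 and 8.68 in HOXB4 1 to 3, a difference of -0.65 (SE 0.25). HOXB4 2 lay within the controls once more. Smo, the signal transducer, stood at 12.2, 12.8 and 12.5 and at 12.0, 12.2 and 11.6, lower without overlap (difference -0.58, SE 0.19). Boc, a hedgehog co-receptor, and Lrp1, an endocytic receptor that takes up Gpc3 with bound hedgehog, differed by -0.49 (SE 0.33) and -0.73 (SE 0.47), with ranges of -0.88 to -0.29 and -1.26 to -0.43 as 1 array was left out. The ligand genes Shh, Ihh and Dhh were not above background in any array. The limma adjusted p ran from 0.60 to 0.74 for the pathway genes whose differences are given.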

How the data were processed

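RNA of 6 sorted samples (100 ng each) was amplified by the WT PLUS method of Affymetrix and read on 1 array per sample, per the labels' protocols. The authors deposited 1 table of log2 values, made with Affymetrix Expression Console and RMA per the submitters' processing notes, without versions; RMA subtracts background, equalises the distribution of all arrays and summarises the probes of a feature, so differences of the whole distribution between samples are removed. Read depth does not apply to arrays, and their number, 3 per group, limits the precision.

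Of 72688 features 65956 were no controls. The platform annotation gave 1 gene for 31258 of them, several for 1492 and none for 33206, and with symbols updated through the RefSeq table of GRCm38.p6 this left 30702 genes, 441 of them with several features. Groups were compared with limma 3.58.1 (lmFit and eBayes, R 4.3.3) on the 6 arrays, two-sided, with Benjamini-Hochberg adjustment over all 30702 genes and a threshold of 0.05. The fit had been tested on simulated data. The 6 pathway lists held 77 genes, 72 of them measured, and 8 further lists held marker genes of endothelium, blood progenitors, paraxial and cardiac mesoderm, endoderm, pluripotent, neural and stromal cells. The members and lists were chosen with earlier results of these data known. Named were all 10 members, in each pathway list the 4 genes with the smallest p, the 5 genes most like and the 3 most opposite to Gpc3, and the microRNAs and neighbours of the members; Shh, Ihh, Dhh, Kdr and the marker genes were named after their values were seen. Alternatives were a replicate block, a trended robust prior, no moderation, array weights, centred arrays, cyclic loess, a filter on dim features, the mean of a gene's features, all features, and each array left out. Same-numbered samples are not stated to share an animal, batch or day and did not deviate together.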

Additional observations from a re-analysis of the deposited data

How the results depend on the processing

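All 10 members were measured in 3 arrays per group, and leaving out 1 array was the setting that moved them most. With each array left out in turn, 0 to 46 genes passed over all genes, the 46 without HOXB4 2; Gpc3 differed by -1.89 to -0.78, and 3 to 7 members had groups without overlap, 7 of them without HOXB4 2. Under the other settings Gpc3 differed by -1.38 (array weights) to -1.05 (cyclic loess), and it passed in none of them. With the replicate number as a block Gpc3 differed by -1.16 (limma adjusted p = 0.92) and 0 genes passed; this changed no call, and the same-numbered arrays deviated from their group means with r = -0.40, -0.59 and -0.35, so the numbers are not read as pairs. Sdc4 changed sign without control 1 (0.0018), without control 3 (0.12) and without HOXB4 1 (0.08), with a range of -0.22 to 0.12. Mir149 ranged from -0.21 to 0.079 (without HOXB4 3) and Mir6239, inside Gpc6, from -0.47 to 0.21. The relation of Gpc3 with Gpc4 turned to r = 0.993 without HOXB4 1 and 3 (4 arrays, exact permutation test, adjusted p = 0.17). The cause of these turns was not tested. The filter on dim features kept 18281 genes and left out Gpc5. Over the members, 145 of the alternative values kept direction and side of the threshold, 3 reversed and 1 newly passed. The median of all genes was -0.04, 0.01 after cyclic loess and -0.02 after centring.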
